A study of Mus musculus with 10 samples.

Results

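Transcript levels of 10 genes of polyamine and arginine metabolism were followed in RAW264.7 cells kept with or without doxorubicin. The members were Sat1, Odc1, Ass1, Asl, Arg2, Srm, Sms, Nos2, Amd1 and Azin1, matched by symbol among the 22186 genes of the deposited table. The set was chosen by function, and in part because Sat1 and Ass1 were higher with doxorubicin, so the differences of those 2 genes are given as a description without a test. The test used for the other genes is named where it first appears.

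RAW264.7 is a mouse macrophage-like line that grew out of a virus-induced tumour, and its genotype is labelled wild type. All cultures were kept in minimum essential medium with fetal bovine serum and antibiotics, 5 with medium alone and 5 with added doxorubicin, for 24 h. The anthracycline doxorubicin intercalates between DNA bases and holds topoisomerase II in its cleaved complex. Its dose is uncertain, since the titles name 10 nM, the series' design text corrects this to 100 nM, and the stock and dilution of the treatment protocol come to 1000 nM. Doxorubicin was given in dimethyl sulfoxide, and the labels name no solvent for the cultures without it. Nothing in the labels states whether the 5 libraries within a group are separate cultures. The p-values thus cover only the spread between these libraries, which may be technical.

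Polyamines are small positively charged molecules that bind nucleic acids and that dividing cells need. Arginase turns arginine into ornithine, ornithine decarboxylase (Odc1) turns ornithine into putrescine, and spermidine synthase (Srm) and spermine synthase (Sms) lengthen it with aminopropyl groups that S-adenosylmethionine decarboxylase (Amd1) prepares. Spermidine/spermine acetyltransferase (Sat1) tags polyamines for export or oxidation. In macrophages arginine also feeds inducible nitric oxide synthase (Nos2), whose other product, citrulline, is returned to arginine by argininosuccinate synthase (Ass1) and argininosuccinate lyase (Asl).

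Values are FPKM, fragments scaled to transcript length and library size. Levels of different genes are set side by side as listed, and their true order may differ. Such comparisons, and ranks among all genes, hold for this table alone. Its 72 cytosolic ribosomal protein symbols, genes that every cell uses, had a median mean of 5.52 FPKM, and 4 of them were below 1 FPKM. Some genes may thus be listed too low, and the cause was not tested. The 10 libraries summed to between 338293 and 356111 FPKM, and their read depth was unknown. The 2 libraries with replicate number 1 stood apart: they correlated with those of numbers 2 to 5 at 0.937 to 0.982 (Pearson, log2(FPKM + 1), across genes), against 0.976 to 0.998 among the other 8. Differences of the tested members are therefore given with and without that pair. Of 10 macrophage markers 9 had a mean of at least 1 FPKM, Mertk being the exception, and their summed level was 1416 to 1561 FPKM in medium and 1482 to 1687 with doxorubicin. None of the markers of epithelium, fibroblasts, lymphocytes or erythroid cells reached 1 FPKM. Of 6 neutrophil markers S100a8 did so, and of 5 endothelial markers Vwf. The endothelial sum was 1.35 to 1.99 FPKM in medium and 1.94 to 5.17 with doxorubicin, highest in doxorubicin 1, and its part in the results was not tested.

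Without treatment the members listed highest were 2 synthesis genes, Srm and Odc1. Srm averaged 209 ± 53.1 FPKM (SD, n = 5), rank 220 of all genes, and Odc1 144 ± 29.5 FPKM, rank 362. Srm exceeded Odc1 in each of the 5 medium libraries, although their ranges overlapped. Sat1 (79.1 ± 11.1 FPKM) came next, below every Odc1 value and above every Sms value. Sms (45.2 ± 5.31), Amd1 (35.1 ± 12.3), Azin1 (29.1 ± 8.29), Asl (23.5 ± 7.81) and Nos2 (20.0 ± 18.8) followed in an order whose neighbouring ranges overlapped. Amd1 exceeded Azin1, for instance, in 3 of 5 medium libraries. Ass1 was lower still (4.97 ± 0.979 FPKM), and Arg2, the mitochondrial arginase gene, was the lowest member at 0.208 ± 0.0495 FPKM, rank 10972 of 22186 genes.

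**Figure D1:**
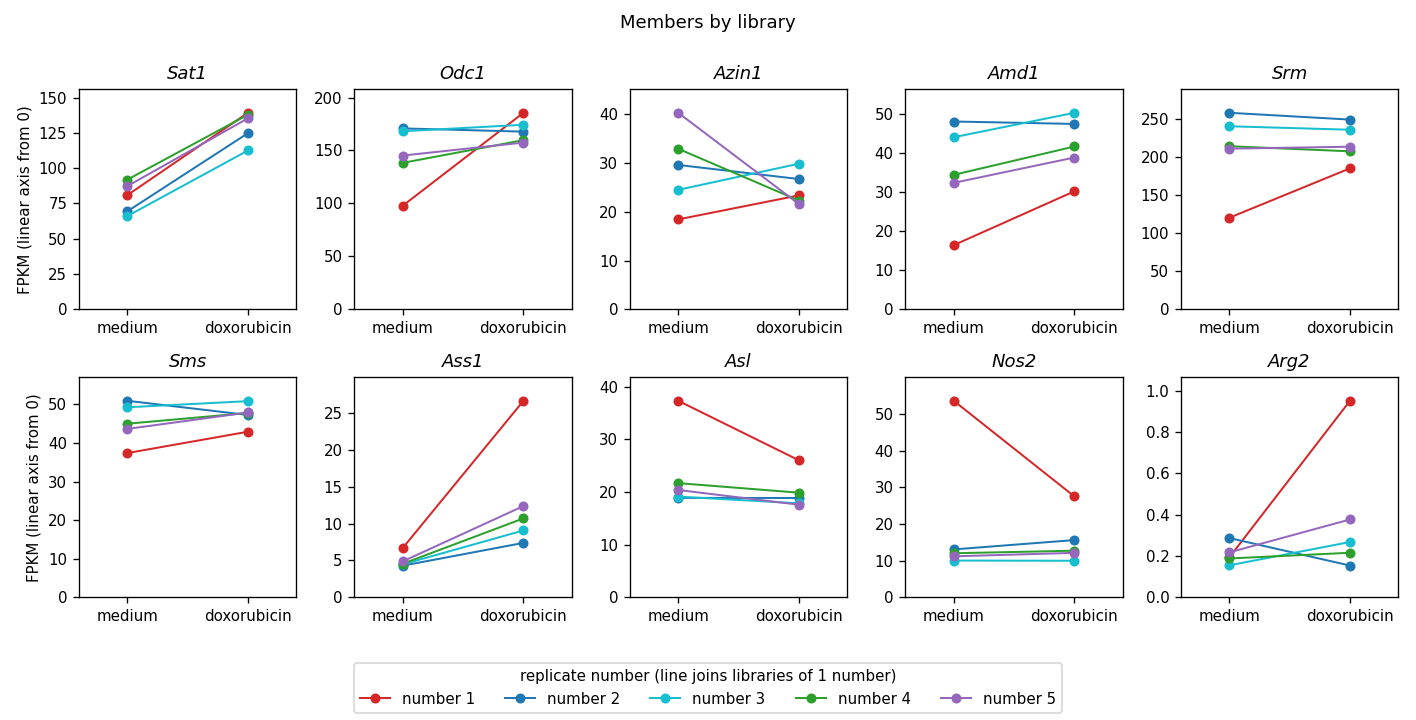
FPKM of the 10 members in each library, on linear axes that start at 0, with a line joining the medium and doxorubicin libraries of each replicate number. In Sat1 and Ass1 all doxorubicin points lie above all medium points, and the number 1 libraries lie far from the rest in Nos2, Asl and Ass1.

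Sat1, the first step of polyamine breakdown, was higher with doxorubicin in every replicate number. Its level was 80.8, 69.4, 66.0, 91.8 and 87.3 FPKM in medium 1 to 5 and 139, 125, 113, 138 and 135 FPKM in doxorubicin 1 to 5. The lowest doxorubicin library was above the highest medium library, so the groups did not overlap. The mean went from 79.1 ± 11.1 to 130.0 ± 11.3 FPKM, a difference of 0.72 on the log2(FPKM + 1) scale (SE 0.10). Within numbers 1 to 5 the doxorubicin level was 1.72, 1.80, 1.70, 1.50 and 1.55 times the medium level, so the number 1 pair lay inside the range of the others. Without that pair the difference was 0.70 (SE 0.11).

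Ass1, which joins citrulline to aspartate, showed the largest difference of the tested members and a much wider spread. It was at 6.68, 4.29, 4.47, 4.55 and 4.87 FPKM in medium 1 to 5, and at 26.6, 7.38, 9.06, 10.7 and 12.4 FPKM in doxorubicin 1 to 5. The groups again did not overlap, and doxorubicin 1 was the highest library by a wide margin. Means were 4.97 ± 0.979 and 13.2 ± 7.72 FPKM (log2 difference 1.13, SE 0.27), and within numbers 1 to 5 the ratio was 3.99, 1.72, 2.03, 2.35 and 2.54. Without the number 1 pair the difference was 0.95 (SE 0.13).

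Across all genes tested, 6.70% had groups that did not overlap, and 2.73% had doxorubicin above, as both of these members did. In 13.2% doxorubicin was higher within all 5 replicate numbers. Since both were picked for that direction, nothing is read from the count.

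Upstream sequence is shown for these 2 genes, whose levels moved in the same direction, and for Odc1, whose groups overlapped. RefSeq windows (build GRCm38.p6, not the build of the deposited values) were found for 5 of the 10 members. Each run is the 250 bases before RefSeq's annotated start, 5′ to 3′ on the gene's strand: chrX:155216450-155216699 (minus strand), chr2:31470020-31470269 (plus strand) and chr12:17544623-17544872 (plus strand). Capitals mark GC boxes (GGGCGG on either strand) and E-boxes (CACGTG, the same on both strands).
Sat1: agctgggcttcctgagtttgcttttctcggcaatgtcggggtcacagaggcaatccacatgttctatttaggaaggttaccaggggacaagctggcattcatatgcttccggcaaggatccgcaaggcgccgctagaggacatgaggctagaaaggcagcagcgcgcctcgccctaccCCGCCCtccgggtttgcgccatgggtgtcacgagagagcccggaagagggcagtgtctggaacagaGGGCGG
Ass1: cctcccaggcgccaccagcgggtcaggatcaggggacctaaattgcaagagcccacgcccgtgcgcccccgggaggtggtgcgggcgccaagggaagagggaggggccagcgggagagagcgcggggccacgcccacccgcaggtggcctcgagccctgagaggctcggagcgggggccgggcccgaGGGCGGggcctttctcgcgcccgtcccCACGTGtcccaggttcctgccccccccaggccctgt
Odc1: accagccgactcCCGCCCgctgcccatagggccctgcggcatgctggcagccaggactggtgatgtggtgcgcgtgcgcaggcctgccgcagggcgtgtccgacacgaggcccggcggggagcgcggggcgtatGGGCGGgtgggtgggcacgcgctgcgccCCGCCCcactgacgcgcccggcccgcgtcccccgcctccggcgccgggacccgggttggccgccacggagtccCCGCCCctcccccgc
The Sat1 run held 2 GC boxes, the Odc1 run 4, and the Ass1 run 1 GC box and 1 E-box, the letters recognised by Myc and related factors. A GC box was present in 32.74% and an E-box in 6.02% of all 32851 such windows. The other 6 motifs searched on both strands had no match in these 3 runs: TGACGTCA (cAMP response element, 1.55% of windows), TGACNNNGC (antioxidant response element core, 10.16%), TGATGCAA (amino acid response element core, 0.79%), TATAAA (12.37%), CCAAT (33.85%) and the p53 half-site consensus (7.13%). Among the windows not shown, an E-box and a CCAAT also lay in a window of Sms. GC boxes lay in another Sms window, and a GC box in that of Amd1. All of these are matches of letters, not measured sites. GC content was 59.6% for Sat1, 75.6% for Ass1 and 80.0% for Odc1, against a median of 52.4%.

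The remaining members did not pass the test with group alone. The 9869 genes that averaged 1 FPKM or more were fitted with limma on log2(FPKM + 1), with group as the only term and Benjamini-Hochberg adjustment over all of them, at an adjusted p of 0.05. Of the 9 members that reached the filter, 1 was called, Sat1, which had been picked for it, against 0.912% of all genes; nothing is read from this count. The 7 tested members other than Sat1 and Ass1 had adjusted p from 0.357 to 0.930. Of these 7, limma called 0 with group alone. With the replicate number as a block it called 0, against 21.6% of all genes, and without the number 1 pair 0, against 5.63%. An unadjusted p under 0.05 was found for 0, 2 and 0 of the 7 in these 3 fits. Among all 9869 genes it was found for 1757, 3811 and 2684. With the pair left out and the block kept 1 was called higher, Amd1, against 10.2% of all genes. The exact permutation test called 0 of these 7, and 0 of all genes. Its smallest adjusted p was 0.118, so no gene could pass it and nothing is read from that result. Library quality weights called 1 higher, Odc1, and 1 lower, Azin1, against 1379 higher and 2302 lower of all 9869 genes.

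Odc1, the entry enzyme of the pathway, was at 97.8, 171, 168, 138 and 145 FPKM in medium 1 to 5 and at 186, 168, 174, 159.8 and 157 FPKM in doxorubicin 1 to 5. Medium 1 was the lowest library and doxorubicin 1 the highest, while the other 8 overlapped. The log2 difference was 0.25 (95% interval -0.046 to 0.55; limma adjusted p = 0.357, and 0.0408 to 0.550 over the other settings). Without the number 1 pair it was 0.087 (SE 0.074), and without medium 1 alone 0.12. Library quality weights were the 1 setting that called it (0.17, adjusted p = 0.0408).

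Amd1, whose product supplies the aminopropyl groups, was at 16.5, 48.1, 44.1, 34.5 and 32.4 FPKM in medium and 30.3, 47.5, 50.4, 41.7 and 38.9 FPKM with doxorubicin. It was higher in 4 of 5 replicate numbers, and both number 1 libraries were the lowest of their group. The difference was 0.31 (95% interval -0.25 to 0.86; limma adjusted p = 0.562, and 0.0379 to 0.822 over the other settings). It passed without the number 1 pair and with the block (0.17, SE 0.053, adjusted p = 0.0379), and without medium 1 alone the difference was 0.066. Amd1 has a near-identical copy, Amd2, listed at no more than 0.238 FPKM, and how reads were shared between them is not given in the sources used here.

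Neither of the aminopropyl transferase genes passed the test. Srm was at 120.1, 258, 240.2, 214 and 211 FPKM in medium and 185, 249, 236, 207 and 213 FPKM with doxorubicin. Its difference was 0.10 (95% interval -0.30 to 0.50; limma adjusted p = 0.823, and 0.462 to 0.973 over the other settings), and it came to -0.027 (SE 0.081) without the number 1 pair and -0.084 without medium 1 alone. Sms was at 37.4, 50.9, 49.3, 45.0 and 43.6 FPKM in medium and 42.9, 47.3, 50.8, 47.8 and 47.9 FPKM with doxorubicin. Its interval was the narrowest of the tested members, -0.12 to 0.26 around 0.070 (limma adjusted p = 0.723, and 0.121 to 0.972 over the other settings). The difference was 0.039 (SE 0.057) without the number 1 pair and 0.0048 without medium 1 alone.

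Azin1 encodes antizyme inhibitor, a relative of ornithine decarboxylase that lacks its activity and keeps antizyme from binding it. The transcript was at 18.4, 29.6, 24.5, 32.9 and 40.3 FPKM in medium and 23.3, 26.7, 29.8, 22.3 and 21.6 FPKM with doxorubicin. Replicate numbers went both ways: the log2 difference was 0.33 and 0.28 in numbers 1 and 3, and -0.14, -0.54 and -0.87 in numbers 2, 4 and 5. Over all libraries it was -0.19 (95% interval -0.59 to 0.20; limma adjusted p = 0.619, and 0.00471 to 0.904 over the other settings). It was -0.32 (SE 0.15) without the number 1 pair, -0.34 without medium 1 alone and -0.066 without medium 5 alone. Library quality weights called it lower (-0.52, adjusted p = 0.00471).

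**Figure D2:**
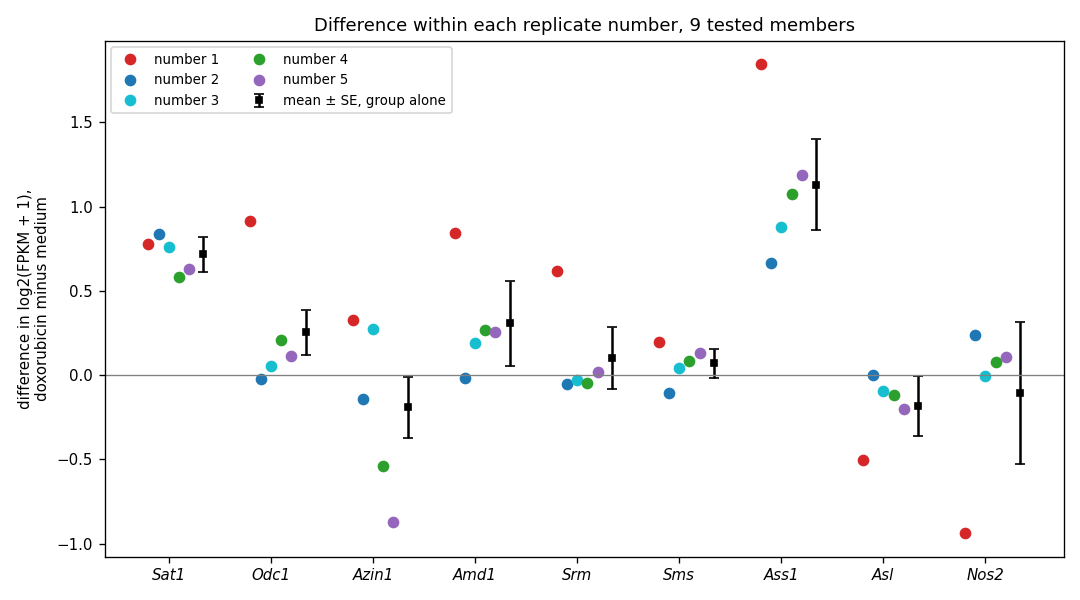
Difference in log2(FPKM + 1), doxorubicin minus medium, of the 9 tested members within replicate numbers 1 to 5 (coloured points), with the mean and its SE from the fit with group alone (black squares). The 5 points of Sat1 lie together between 0.58 and 0.84, those of Ass1 between 0.66 and 1.85, and those of Azin1 and Nos2 on both sides of 0.

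The transcript levels of Sat1 and Odc1 can be set against each other within each library, where the library's scale cancels. Sat1 stood at 0.826, 0.406, 0.393, 0.664 and 0.601 of the Odc1 level in medium 1 to 5 and at 0.750, 0.744, 0.646, 0.863 and 0.860 with doxorubicin 1 to 5. The ratio was higher with doxorubicin in 4 of 5 numbers. In number 1 it was lower, since Odc1 there was 1.90 times its medium level and Sat1 1.72 times. Medium 1 held the lowest Odc1 level of all libraries, 97.8 FPKM. The ratio contains Sat1, which was picked for its rise.

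On the arginine side, Asl, which completes the return of citrulline to arginine, was at 37.3, 18.9, 19.1, 21.7 and 20.4 FPKM in medium and 26.0, 18.9, 17.8, 19.9 and 17.6 FPKM with doxorubicin. It lay lower in all 5 numbers, as did 23.1% of all genes tested, by 0.18 on average (95% interval -0.58 to 0.21; limma adjusted p = 0.634, and 0.0702 to 0.960 over the other settings). Medium 1 was the highest library: the difference was -0.011 without it alone and -0.10 (SE 0.060) without the number 1 pair. Asl and Ass1 act in succession, and the ratio of Ass1 to Asl ran from 0.179 to 0.239 in medium and from 0.391 to 1.02 with doxorubicin. This ratio too contains a gene picked for its rise.

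Nos2, the inducible nitric oxide synthase, was at 53.5, 13.1, 10.0, 12.0 and 11.2 FPKM in medium and 27.5, 15.6, 9.96, 12.7 and 12.1 FPKM with doxorubicin. Both number 1 libraries were above the other 8, which lay between 9.96 and 15.6 FPKM. The difference was -0.10 (95% interval -1.03 to 0.82; limma adjusted p = 0.930, and 0.166 to 0.990 over the other settings) and 0.10 (SE 0.12) without the number 1 pair, and without 1 library it ran from -0.32 (doxorubicin 1) to 0.32 (medium 1). Arg2 was at 0.193, 0.287, 0.155, 0.188 and 0.218 FPKM in medium and 0.952, 0.154, 0.268, 0.216 and 0.377 FPKM with doxorubicin. It was below the filter and not tested, and 1 library, doxorubicin 1, was well above the others.

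**Figure D3:**
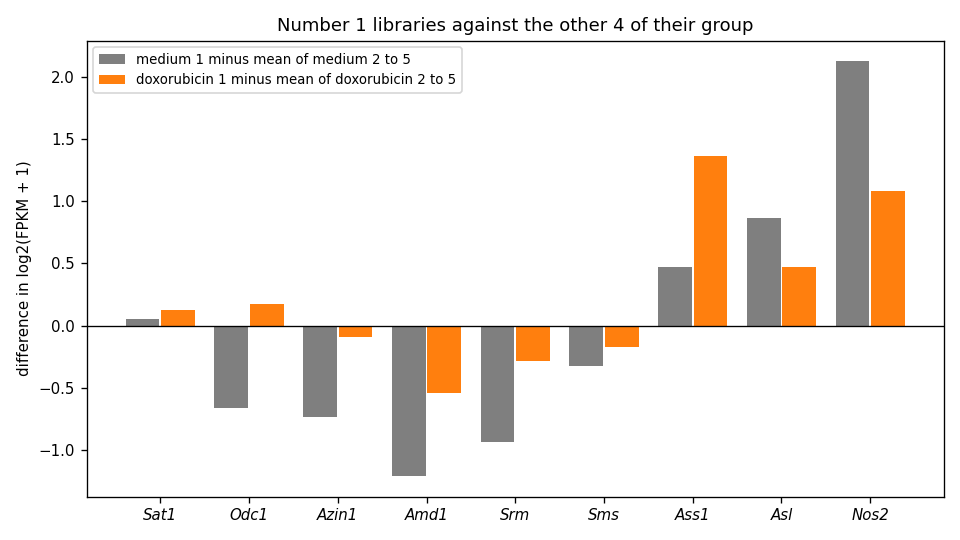
Difference in log2(FPKM + 1) between the number 1 library and the mean of the other 4 libraries of its group, for the 9 tested members, in medium (grey) and doxorubicin (orange). Bars of Nos2, Asl and Ass1 point up and those of Amd1, Srm and Sms down in both groups, while Sat1 stays near 0.

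In medium 1 the members Amd1, Srm, Azin1, Odc1 and Sms were low and Nos2, Asl and Ass1 high. Against the mean of the other 4 medium libraries on the log2(FPKM + 1) scale, medium 1 had Amd1 at -1.21, Srm at -0.93, Azin1 at -0.73, Odc1 at -0.66 and Sms at -0.33. Nos2 was at 2.12, Asl at 0.87 and Ass1 at 0.47. In doxorubicin 1 the same values were -0.54 for Amd1, -0.29 for Srm, -0.088 for Azin1, 0.17 for Odc1 and -0.17 for Sms, and 1.08 for Nos2, 0.47 for Asl and 1.37 for Ass1. Sat1 was at 0.053 and 0.13. Other genes tied to nitric oxide lay on both sides in medium 1, where Gch1 was at 0.34, Spr at -0.72, Nosip at -0.52, Pts at -0.0017 and Qdpr at -0.016. Arg1, the cytosolic arginase gene typical of alternatively activated macrophages and singled out after its values were seen, was at 6.50 and 7.10 FPKM in the number 1 libraries and at 0.435 to 1.32 FPKM in the other 8.

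Other genes of these pathways came from a list of 55, of which 40 passed the filter. With group alone, 0 of 40 were called by limma, against 0.912% of all genes. In that fit 7 of 40 had an unadjusted p under 0.05, against 1757 of all 9869 genes. Library quality weights called 19 of 40, against 3681 of 9869. The exact permutation test, which no gene could pass, called 0 of either. The fit with the replicate block called 3 of 40 higher and 7 lower, against 7.81% and 13.7% of all genes. The list's median log2 difference was 0.022, and that of all genes tested -0.026.

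The genes that fell with the block included Aldh18a1 and Pycr1, which act in proline synthesis from glutamate. Aldh18a1, which makes the precursor of proline and ornithine, was at 65.2, 48.8, 53.2, 77.9 and 75.8 FPKM in medium and 38.9, 31.2, 34.7, 45.9 and 46.6 FPKM with doxorubicin. Its groups did not overlap, with doxorubicin below as in 3.97% of all genes tested (log2 difference -0.68; limma adjusted p = 0.0696, and 2.26e-04 with the block, range 2.35e-05 to 0.204 over the other settings). Pycr1, the mitochondrial pyrroline carboxylate reductase gene, was at 3.46 ± 1.49 and 1.68 ± 0.670 FPKM (-0.71; limma adjusted p = 0.176, and 0.00151 with the block, range 2.91e-04 to 0.365). By contrast Aldh4a1, an enzyme of proline breakdown, was at 2.66 ± 0.737 and 4.76 ± 2.02 FPKM and rose with the block (0.62; limma adjusted p = 0.155, and 0.00597 with the block, range 5.23e-04 to 0.349). Doxorubicin 1 held the highest Aldh4a1 level, 8.33 FPKM, and without the number 1 pair the difference was 0.54. The ornithine aminotransferase gene Oat was at 46.1 ± 4.87 and 48.3 ± 2.25 FPKM (0.071; limma adjusted p = 0.673).

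Among transporters, Slc7a1, the main cationic amino acid carrier, was at 62.8 ± 15.8 and 51.6 ± 9.62 FPKM (-0.26; limma adjusted p = 0.488, and 0.0119 with the block, range 0.00163 to 0.752). Slc3a2, the shared heavy chain of several amino acid exchangers, was at 125 ± 17.9 and 93.4 ± 13.8 FPKM (-0.41; limma adjusted p = 0.134, and 8.91e-04 with the block, range 1.15e-04 to 0.313). Cav1, a caveolar coat gene listed here for its part in polyamine uptake, rose with the block from 1.24 ± 0.522 to 2.14 ± 0.719 FPKM (0.49, limma adjusted p = 0.265, and 0.00437 with the block, range 0.00152 to 0.468). The lysosomal polyamine exporter gene Atp13a2 was at 78.1 ± 22.0 and 78.5 ± 16.2 FPKM (0.022; limma adjusted p = 0.964).

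In polyamine turnover the oxidase gene Paox, which acts on acetylated polyamines made by the Sat1 product, was at 3.53 ± 1.29 and 2.32 ± 0.440 FPKM and fell with the block (-0.42, limma adjusted p = 0.234, and 0.0184 with the block, range 0.00977 to 0.438). The antizyme gene Oaz1 was at 232 ± 22.8 and 235 ± 11.7 FPKM (0.027; limma adjusted p = 0.892). Spermidine is also used to make hypusine on the translation factor eIF5A. Dhps, the first enzyme of that step, fell with the block by 0.17 (24.6 ± 3.20 to 21.7 ± 2.43 FPKM, limma adjusted p = 0.436, and 0.0322 with the block, range 0.00915 to 0.622). Eif5a itself was at 1113 ± 145 and 1084 ± 104 FPKM (-0.033, limma adjusted p = 0.908).

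For nitric oxide, Gch1, the entry enzyme to the cofactor tetrahydrobiopterin, was at 22.1 ± 6.68 and 14.7 ± 4.09 FPKM. It lay lower in all 5 numbers, by 0.46 to 0.61 on the log2 scale, and fell with the block (-0.54; limma adjusted p = 0.268, and 5.40e-04 with the block, range 1.14e-04 to 0.502). Padi2, a protein deiminase gene that makes peptide-bound citrulline, completed the 10 calls (0.25, limma adjusted p = 0.605, and 0.0268 with the block, range 0.0148 to 0.842). Its number 1 libraries were the highest of both groups, at 3.64 and 4.28 FPKM. Without the number 1 pair, 2 of 40 were called with group alone, Cav1 and Aldh4a1, against 5.63% of all genes. That pair left out and the block kept, 5 of 40 were called higher and 10 lower, against 10.2% and 18.4% of all genes.

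**Figure D4:**
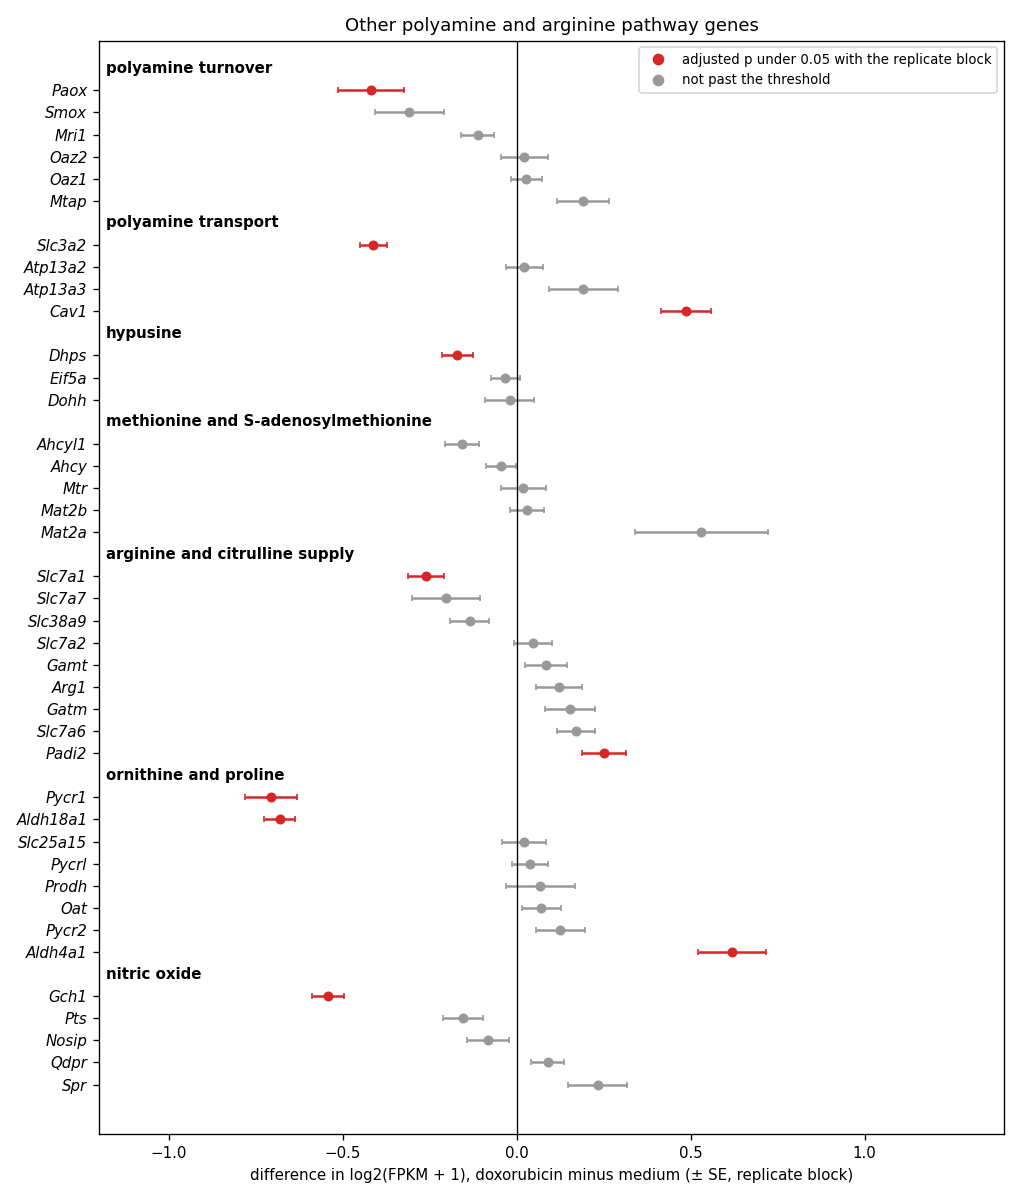
Difference in log2(FPKM + 1), doxorubicin minus medium, with its SE from the fit with the replicate block, for the 40 tested genes of the wider list in 7 functional groups. The 10 genes past the adjusted threshold are in red, 7 on the lower side led by Pycr1 and Aldh18a1 and 3 on the higher side led by Aldh4a1.

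Of the 15 list genes below the filter, Otc, Nags, Slc18b1 and Ddah1 were listed at 0 in every library, and the urea cycle gene Cps1 at no more than 0.0142 FPKM. The thialysine acetyltransferase gene Sat2, a paralog of Sat1, was listed above 0 in 1 library (0.0355 FPKM). The neuronal and endothelial nitric oxide synthase genes Nos1 and Nos3 were at no more than 0.272 and 0.0529 FPKM.

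Genes whose profile over the 10 libraries was closest to that of Sat1 were Glipr1, Tspan7 and Fcgr4. Closeness was the root mean square difference of log2(FPKM + 1) after centring each gene, 0.108, 0.177 and 0.178. Medium and doxorubicin levels of Glipr1 were 68.2 ± 7.82 and 108 ± 17.8 FPKM, with Tspan7 at 19.6 ± 1.15 and 29.4 ± 1.19, and Fcgr4, an Fc receptor gene, at 12.2 ± 1.39 and 20.5 ± 4.69. The profiles closest to Ass1 were those of Rsad2, an interferon-induced gene (0.163), the adenylate kinase gene Ak1 (0.192) and Dcxr, a carbonyl reductase gene (0.202). Rsad2 was at 1.25 ± 0.268 and 3.56 ± 2.61 FPKM, Ak1 at 1.69 ± 0.351 and 5.24 ± 2.91, and Dcxr at 6.71 ± 0.871 and 13.0 ± 5.88. These distances are a description over libraries that share their groups and replicate numbers.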

How the data were processed

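Poly(A) RNA of 10 libraries was selected on oligo(dT) beads, fragmented and primed at random, per the labels' protocols. The authors deposited FPKM values, a column for each library and a row for each gene symbol. Their processing notes name GRCm39 as the build. The sources used here do not give the aligner, quantifier, annotation or strand setting. FPKM hold no read totals, so depth was unknown and no counting interval is given. Columns were matched to samples by the library name in the labels.

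Values were analysed as log2(FPKM + 1), which understates changes of low genes. Genes averaging 1 FPKM or more were tested with limma 3.58.1 (R 4.3.3, mean-variance trend, group as the only term, Benjamini-Hochberg adjustment). The fits were run on simulated data, in which only the block fit was given a shift shared within replicate numbers. The group-alone, weights and permutation fits were run there on independent noise, so their behaviour under such a shift was not tested. The members and lists were chosen with earlier results of these data known. All members were named; other list genes were named by the rule of passing with group alone or with the block, and Oat, Atp13a2, Oaz1, Eif5a, Arg1, Spr, Nosip, Pts, Qdpr and the genes below the filter were chosen after their values were seen. Pycr3 was matched to its table symbol Pycrl through RefSeq synonyms.

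Deviations from the group mean of same-numbered libraries correlated at 0.79, 0.70, 0.67, 0.52 and 0.55 for numbers 1 to 5, each above 0.1, so the replicate number was used as a block in a second fit. Numbers 2 with 3 and 4 with 5 correlated about as closely (0.51 to 0.69). The numbers may thus not be separate pairs, and the p-values of the block fit may be too small.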

Additional observations from a re-analysis of the deposited data

Results flagged for a closer look

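Of 40 groups of 5 libraries, from the 10 members and the 10 named genes of the wider list, 9 held a library far from the other 4 by Dixon's test, which flags about 1 group in 20 by chance. All 9 were number 1 libraries at the top of their group.

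Among members these were Ass1 in medium 1 (6.68 FPKM, next highest 4.87) and doxorubicin 1 (26.6, next 12.4), Asl in medium 1 (37.3, next 21.7) and doxorubicin 1 (26.0, next 19.9), Nos2 in medium 1 (53.5, next 13.1) and Arg2 in doxorubicin 1 (0.952, next 0.377). In the wider list they were Aldh4a1 in doxorubicin 1 (8.33 FPKM, next 4.32) and Padi2 in medium 1 (3.64, next 1.58) and doxorubicin 1 (4.28, next 2.31).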

How the results depend on the processing

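Over 20 other settings, 325 of the log2 differences of the 19 named tested genes kept their direction and side of the threshold, 40 passed it newly, 2 lost it and 8 changed sign. The 10 wider list genes among them were named because they passed with the replicate block and not with group alone. Their new passes with the block were thus fixed by the naming rule, and nothing is read from the 40. Both losses were of Sat1, by the exact permutation test (no gene can pass it, its smallest adjusted p being 0.118) and without doxorubicin 5. Sat1 and Ass1 were picked for their rise, so nothing is read from their passes or losses. The sign changes were of Srm (-0.027 without the number 1 pair, with or without the replicate block, and -0.084 without medium 1, in a range up to 0.19 with 1 library left out) and Nos2 (0.072 with library quality weights, 0.10 without the number 1 pair, with or without the block, and 0.32 without medium 1 and 0.023 without doxorubicin 3, in a range from -0.32 with 1 library left out); the cause was not tested.

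All genes called numbered 90, against 57 with a 5 FPKM filter, 3681 with library quality weights, 0 by the exact permutation test, 2127 with the replicate block, 556 without the number 1 pair, 2827 without it and with the block, and 15 to 226 with 1 library left out. Members called numbered 1, against 4 with library quality weights, 0 by the exact permutation test, 2 with the replicate block, 2 without the number 1 pair, 3 without it and with the block, and 0 (without doxorubicin 5) to 2 (without doxorubicin 1) with 1 library left out. These counts hold Sat1 and Ass1, which were picked for their rise, and nothing is read from them. Wider list genes called numbered 0, against 19 with library quality weights, 10 with the replicate block, 2 without the number 1 pair and 15 without it and with the block, and 0 in every fit with 1 library left out. Unknown depth limits what can be said of genes below 1 FPKM, Arg2 among them.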
